A study of Homo sapiens with 35 samples.

Results

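H9 human embryonic stem cells kept for 24 h in BA medium were set against the same cell line at time zero (t0). H9 is an established pluripotent line. Of the 35 libraries in the series, 6 enter this comparison: 3 replicates of BA at 24 h and 3 of t0. BA is E6 medium with BMP4 and Activin A, labelled 40 ng/mL, and the series describes it as the mesendoderm condition. The t0 cells are the control, from cultures maintained in E8 medium on Matrigel and passaged with EDTA, and differentiation followed seeding as single cells. E6 lacks the FGF2 and TGF-beta that E8 supplies, so medium, added factors and time since seeding all differ between BA cells and t0 cells and cannot be told apart here. Single libraries of E6 and of E8 at 24 h, and of BA at 6, 12 and 18 h, are given beside the results as values with no test. Poly(A) RNA was sequenced from TruSeq mRNA libraries. The comparison asks which genes change during the first day on the way from pluripotency to mesendoderm, the shared precursor of mesoderm and endoderm.

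BMP4 acts through type I and type II receptors that phosphorylate SMAD1, SMAD5 and SMAD9, and the ID genes and the inhibitory SMADs are its classical early targets. Activin A, like Nodal, acts through SMAD2 and SMAD3, and at the gastrula stage it induces T-box and homeobox factors of the primitive streak. In human embryonic stem cells BMP4 also induces WNT3, and WNT and Nodal signals then act together, while BMP4 given without them favours amnion-like and trophoblast-like fates.

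After 24 h in BA, genes of the BMP, Nodal and WNT responses and transcription factors of the primitive streak and of the amnion were higher than at t0, and several neural genes were lower. Of 21554 genes tested, 1918 (8.9%) passed an adjusted p of 0.05 in edgeR's quasi-likelihood test with replicate number as a block. Of these, 1248 (5.79% of the genes tested) were higher in BA cells and 670 (3.11%) were lower. At least 2-fold changes were called for 773 genes that were higher (3.59%) and 264 that were lower (1.22%). The change had the same sign in all 3 replicate numbers for 1894 of the 1918 genes. The 3 BA libraries all lay above the 3 t0 libraries in 916 of the 1248 genes (over all genes tested, 10.2%) and all below them in 424 of the 670 (8.37%). By gene type, 1059 of 14538 tested protein-coding genes were higher and 597 were lower, against 7 and 8 of 1505 processed pseudogenes. Without the replicate block, 331 genes passed (264 higher, 67 lower), and all 331 were among the 1918. The count also fell by over 1.5 times, to 1096, 1266, 939 and 921 genes, without BA replicate 1, BA replicate 3, t0 replicate 2 and t0 replicate 3.

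The replicates are not alike. Replicate 1 of both groups stands apart from replicates 2 and 3: the first principal component of the 6 libraries holds 75.7% of the variance and separates replicate 1 from the other two, and the second (17.1%) separates BA cells from t0 cells. Across genes, in log CPM, replicates 2 and 3 correlated at r = 0.989 in BA cells and 0.991 in t0 cells. For replicate 1 against each of these, r was 0.907 to 0.91 in BA cells and 0.915 to 0.916 in t0 cells. Library totals were 19603259, 33039154 and 32644672 counts in BA cells and 19274380, 31251959 and 28964895 counts in t0 cells. Mitochondrially encoded genes took 1.91%, 4.14% and 4.99% of the counts in BA cells and 1.86%, 4.43% and 5.51% in t0 cells, and ribosomal protein genes 1.3%, 5.03% and 4.47% in BA cells and 1.32%, 4.81% and 4.7% in t0 cells. These shares move with the replicate and not with the group, and their part in the differences between replicates was not tested. Values below are CPM, a gene's reads scaled to the size of its library, in replicates 1, 2 and 3, in that order. Each change is a log2 change in BA against t0 from the blocked model, with its standard error, and each p is adjusted over all genes tested. Counts of called list members are to be read against the 5.79% higher and 3.11% lower of all genes tested. In bulk RNA, more cells with a transcript and more transcript per cell cannot be told apart.

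The label of the condition was checked against streak markers. EOMES, a T-box factor that starts the streak program, had 441, 39.6 and 44.2 CPM in BA cells, against 0.163, 0.225 and 0.14 CPM in t0 cells (log2 change 9.43 ± 0.68, adjusted p = 3.43e-05). TBXT (listed under its older symbol T), the Brachyury factor of the streak and nascent mesoderm, had 95.1, 5.67 and 7.44 CPM in BA cells, against 0.217, 0.0322 and 0.21 CPM in t0 cells (log2 change 7.13 ± 0.88, adjusted p = 0.00106). MIXL1, a homeobox factor of mesendoderm, had 404, 12.3 and 14.1 CPM in BA cells, against 0.705, 0.74 and 0.736 CPM in t0 cells (log2 change 5.97 ± 0.90, adjusted p = 0.00321). The BA libraries were higher than every t0 library for all 3 genes, and replicate 1 of BA was the highest. GSC, a homeobox factor of the organizer, had 2.09, 0.154 and 0.063 CPM in BA cells, against 0.109, 0.0322 and 0.105 CPM in t0 cells. MESP1, a factor of nascent mesoderm, had 1.25, 0.0308 and 0.158 CPM in BA cells, against 0.0543, 0.0644 and 0.0701 CPM in t0 cells. Both stayed at or under 2.09 CPM in every library, and neither passed the test (adjusted p = 0.134 and 0.417). PAX6, a neural factor, also stayed under 1 CPM in the 6 libraries. In the single libraries at 24 h, EOMES had 4.46 CPM in E6 and 3 CPM in E8 and MIXL1 had 5.26 CPM in E6 and 3.18 CPM in E8. With no block for replicate, EOMES and TBXT passed the test, while MIXL1 had an adjusted p of 0.0816.

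**Figure D1:**
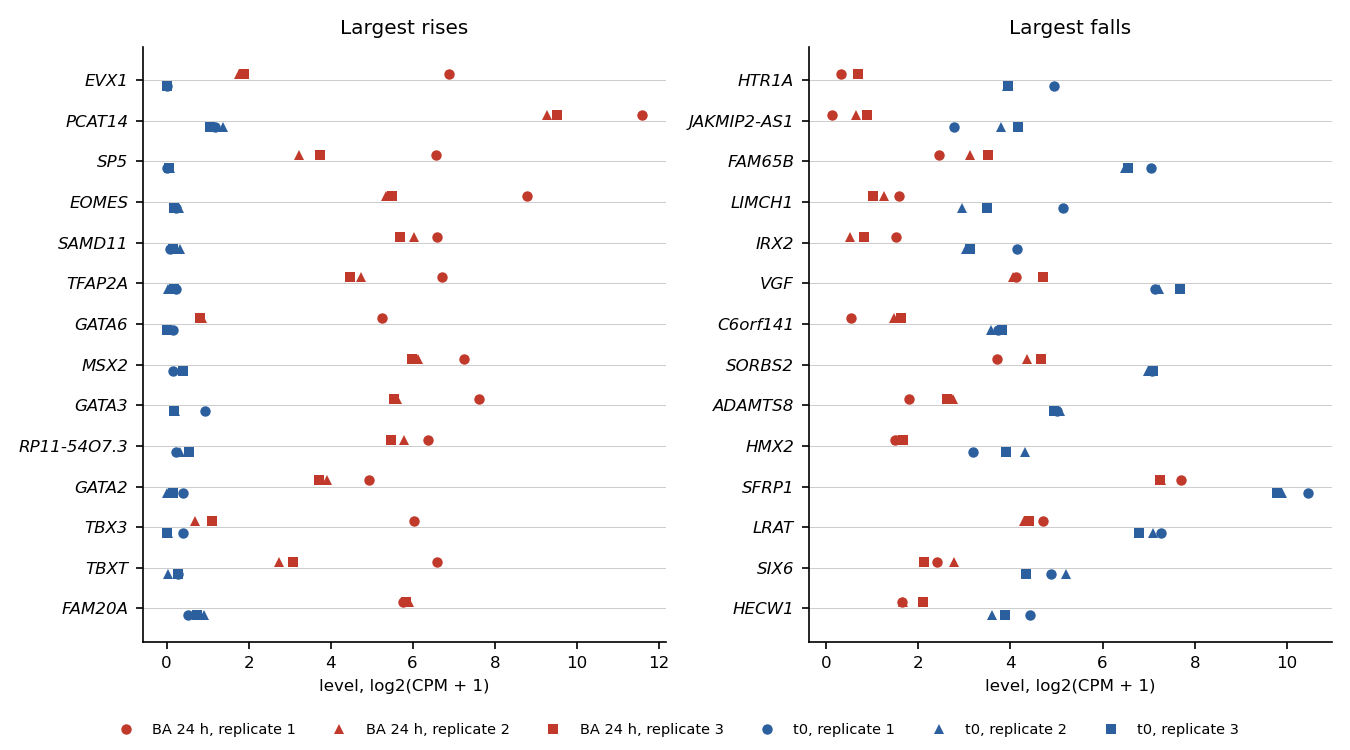
Levels, as log2(CPM + 1) on the x axis, of 14 genes with the largest rises (left) and 14 with the largest falls (right) among called genes of at least 10 CPM on average in BA or t0, each with a change of one sign in all 3 replicates. Red symbols are the 3 BA libraries at 24 h and blue symbols the 3 t0 libraries, with a circle, triangle or square for replicate 1, 2 or 3. For the rises the t0 libraries lie far to the left of BA for most genes, and replicate 1 of BA (circle) lies to the right of the other BA libraries for most genes, as for EVX1, EOMES and TBX3.

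Target genes of BMP signalling rose in nearly every case. Of 18 tested genes in a list of BMP-SMAD targets, 15 were higher in BA cells and none was lower, with a median log2 change of 3.86 against -0.02 over all genes tested. The count was 11 without the replicate block and 13 to 15 with 1 of the 6 libraries left out, lowest without t0 replicate 2 or t0 replicate 3. ID1, an inhibitor of basic helix-loop-helix factors and a direct SMAD target, had 188, 584 and 496 CPM in BA cells, against 10.7, 41.3 and 39.4 CPM in t0 cells (log2 change 3.84 ± 0.46, adjusted p = 0.000955). Its levels were higher in replicates 2 and 3 than in replicate 1 in both groups, and the change was of similar size in all 3. ID3, which has the same role, had 282, 733 and 659.6 CPM in BA cells, against 43.5, 118 and 103 CPM in t0 cells (log2 change 2.67 ± 0.26, adjusted p = 0.000174). ID2 had 161, 122 and 123 CPM in BA cells, against 27.6, 46.1 and 44 CPM in t0 cells (log2 change 1.86 ± 0.27, adjusted p = 0.00228). BAMBI, a pseudoreceptor that dampens TGF-beta family signals, had 285, 284 and 278 CPM in BA cells, against 15.1, 21.7 and 21.8 CPM in t0 cells (log2 change 3.87 ± 0.20, adjusted p = 9.71e-07). The 3 BA libraries of BAMBI lay close together, and all stood far above the t0 libraries. MSX2, a homeobox factor induced by BMP, had 151, 69.3 and 62.8 CPM in BA cells, against 0.109, 0.322 and 0.315 CPM in t0 cells (log2 change 8.34 ± 0.40, adjusted p = 9.71e-07). MSX1, its paralogue, did not pass the test over the 3 replicates (21.6, 0.308 and 0.189 CPM in BA cells, against 0.109, 0.129 and 0.175 CPM in t0 cells, adjusted p = 0.264): replicate 1 alone was high. In the model with no replicate block, ID1, ID2, BAMBI and MSX2 passed, while ID3 had an adjusted p of 0.0659.

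Of the BMP targets, ID1 and BAMBI were already high at 6 h in the single BA library of that time. ID1 had 183, 239.6 and 223 CPM at 6, 12 and 18 h in BA, and BAMBI had 176, 254 and 297 CPM. MSX2 climbed more slowly, with 9.62, 42.7 and 102 CPM. At 24 h without the added factors, ID1 had 12.9 CPM in E6 and 19 CPM in E8 and BAMBI had 18.7 CPM in E6 and 20.4 CPM in E8. These levels lay near those of t0 and far below those of BA.

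Some inhibitory SMADs, antagonists and receptors of the pathway were higher, while most tested members of the antagonist and receptor lists did not pass. SMAD6 and SMAD7, which block receptor-activated SMADs, were both higher. SMAD6 had 153, 68.9 and 64.7 CPM in BA cells, against 3.91, 2.48 and 3.15 CPM in t0 cells (log2 change 4.81 ± 0.59, adjusted p = 0.00109). SMAD7 had 168, 132 and 119.8 CPM in BA cells, against 38.8, 44.7 and 41.2 CPM in t0 cells (log2 change 1.70 ± 0.20, adjusted p = 0.000377). SMAD9, a BMP-responsive SMAD, had 44.7, 7.02 and 7.53 CPM in BA cells, against 1.52, 1.03 and 0.421 CPM in t0 cells (log2 change 3.98 ± 0.59, adjusted p = 0.00243). In the list of SMAD proteins and cofactors 5 of 15 tested genes were higher and none was lower. Among 14 tested antagonists, 4 were higher, NOG, GREM1 and FST among them, and none was lower. Noggin (NOG), which binds BMPs, had 46.6, 8.5 and 7.5 CPM in BA cells, against 0.705, 0.161 and 0.105 CPM in t0 cells (log2 change 6.08 ± 1.19, adjusted p = 0.0112). GREM1 peaked early in the single BA libraries, with 73.7, 56.8 and 24.1 CPM at 6, 12 and 18 h, and at 24 h it had 34.5, 5.58 and 7.19 CPM in BA cells, against 7.32, 0.998 and 1.86 CPM in t0 cells (log2 change 2.20 ± 0.50, adjusted p = 0.0201). Of 16 tested receptors and coreceptors 4 were higher and 1 was lower, with a median log2 change of -0.03. The type I receptors ACVR1 and BMPR1A changed by 1.60 ± 0.19 and 1.36 ± 0.24 (adjusted p = 0.000401 and 0.00614), and RGMA, a BMP coreceptor, fell by 1.25 on the log2 scale (adjusted p = 0.0172). BMP4 itself, the ligand added to the medium, had 15.2, 5.02 and 7.12 CPM in BA cells, against 2.98, 1.13 and 1.02 CPM in t0 cells as an endogenous transcript (log2 change 2.42 ± 0.48, adjusted p = 0.0113). Group alone as the model left SMAD6, SMAD7, SMAD9, NOG and ACVR1 past the threshold, while BMPR1A, BMP4, RGMA, GREM1 and FST had adjusted p-values from 0.0665 to 0.85. The NOG call was lost without t0 replicate 2 or t0 replicate 3, with a highest adjusted p of 0.0633. The GREM1 and RGMA calls were lost without BA replicate 1, t0 replicate 1, t0 replicate 2 or t0 replicate 3, with highest adjusted p-values of 0.107 and 0.072. The FST call was lost without BA replicate 3, t0 replicate 1 or t0 replicate 2, with a highest adjusted p of 0.0659. The BMP4 call was lost without BA replicate 1, t0 replicate 2 or t0 replicate 3, with a highest adjusted p of 0.0581. Counts of higher members in the antagonist list were 2 without the replicate block and 1 to 4 with 1 of the 6 libraries left out, lowest without t0 replicate 2. For the receptors they were 1 without the replicate block and 2 to 4 with 1 of the 6 libraries left out, lowest without BA replicate 1, t0 replicate 1, t0 replicate 2 or t0 replicate 3, and for the SMADs and cofactors 3 without the replicate block and 3 to 4 with 1 of the 6 libraries left out, lowest without BA replicate 1, BA replicate 3, t0 replicate 2 or t0 replicate 3.

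Promoters of 3 genes that rose are printed as examples with at least 3 matches to the motifs of the factors these signals act through. Each runs from 250 bases before to 50 after the start in the RefSeq table (GRCh38.p14), 5′ to 3′ on the gene's strand. Capitals mark GGCGCC (the GC-rich SMAD element), GTCTG or its reverse complement CAGAC (the SMAD box) and CTTTGAT or ATCAAAG (the TCF and LEF motif). BAMBI lies at chr10:28677271-28677570, plus strand, SAMD11 at chr1:925481-925780, plus strand, and SP5, a zinc-finger factor and direct WNT target, at chr2:170715087-170715386, plus strand.
BAMBI: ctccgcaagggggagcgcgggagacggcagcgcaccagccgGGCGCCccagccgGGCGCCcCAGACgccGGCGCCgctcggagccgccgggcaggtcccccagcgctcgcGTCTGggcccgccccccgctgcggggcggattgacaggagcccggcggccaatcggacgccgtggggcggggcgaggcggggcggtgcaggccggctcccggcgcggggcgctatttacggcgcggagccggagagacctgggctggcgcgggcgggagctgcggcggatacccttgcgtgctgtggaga
SAMD11: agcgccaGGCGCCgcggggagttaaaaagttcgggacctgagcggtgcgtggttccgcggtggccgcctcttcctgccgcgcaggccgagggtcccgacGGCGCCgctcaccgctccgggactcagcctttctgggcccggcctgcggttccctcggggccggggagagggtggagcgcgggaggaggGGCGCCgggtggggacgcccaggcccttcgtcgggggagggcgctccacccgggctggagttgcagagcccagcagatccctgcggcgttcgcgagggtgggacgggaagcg
SP5: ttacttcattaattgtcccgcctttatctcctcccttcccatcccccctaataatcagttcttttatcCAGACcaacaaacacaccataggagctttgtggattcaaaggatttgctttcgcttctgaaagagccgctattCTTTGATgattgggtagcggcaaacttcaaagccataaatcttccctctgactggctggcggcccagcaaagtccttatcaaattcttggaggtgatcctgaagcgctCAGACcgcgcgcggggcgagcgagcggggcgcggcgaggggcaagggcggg
BAMBI holds 3 GGCGCC and 2 SMAD boxes, SAMD11 holds 3 GGCGCC, and SP5 holds 2 SMAD boxes and 1 TCF and LEF motif, on either strand and with no motif overlapping another. GATA6, which also rose, has 3 matches as well (2 GGCGCC and 1 SMAD box) and is not printed. SIX6, which fell, also has 3 (1 GGCGCC, 1 SMAD box and 1 TCF and LEF motif) and is not printed. Over all 27305 promoters of the table, 19% hold GGCGCC, 45% a SMAD box and 2.64% the TCF and LEF motif. Of the called genes with a promoter there, GGCGCC was present in 36.2% of the 827 that rose and 32.8% of the 466 that fell, against 29.5% of the 11927 tested. For the SMAD box the shares were 47.4%, 41% and 43.4%, and for TCF and LEF 0.726%, 1.5% and 1.51%. Of 14 promoters of the BMP-SMAD target list, 3 (21.4%) hold GGCGCC, 5 (35.7%) a SMAD box and 0 the TCF and LEF motif. Of 9 promoters of WNT targets, 3 (33.3%) hold GGCGCC, 5 (55.6%) a SMAD box and 1 (11.1%) the TCF and LEF motif. The ID1 promoter, of a gene that rose in every replicate, holds none of these letters in this window. Of 62 genes considered, 38 have an entry.

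Nodal pathway targets and streak factors were higher as well. Of 15 tested Activin-Nodal targets 8 were higher and none was lower, with a median log2 change of 2.50. Of 18 streak transcription factors 9 were higher and 1 was lower, with a median of 4.81. GDF3, a Nodal-related ligand, had 78.1, 105 and 91.3 CPM in BA cells, against 3.96, 6.63 and 5.64 CPM in t0 cells (log2 change 4.12 ± 0.89, adjusted p = 0.018), with 9.46, 35.2 and 94.2 CPM at 6, 12 and 18 h. EVX1, a homeobox factor of the posterior streak, had 118, 2.4 and 2.68 CPM in BA cells and no count in any t0 library (adjusted p = 3.6e-06). Its mean over the 3 BA libraries was at least 337-fold higher than a floor of 3 counts per t0 library. Replicate 1 held most of that mean, so the bound does not hold for replicates 2 and 3. SP5 had 94, 8.41 and 12.3 CPM in BA cells, against 0, 0.0644 and 0.035 CPM in t0 cells, a ratio of 769 with an exact 95% counting interval of 263 to 3730, since t0 holds 3 counts in all (adjusted p = 0.00813). This ratio pools the 3 BA libraries, of which replicate 1 was by far the highest. LEFTY1, a Nodal antagonist, did not pass: it had 8.05, 115 and 92.3 CPM in BA cells, against 15.8, 13.8 and 13.9 CPM in t0 cells, lower in BA than at t0 in replicate 1 and higher in replicates 2 and 3. When replicate number was left out of the model, SP5 passed, while GDF3 had an adjusted p of 0.0595 and EVX1 had an adjusted p of 0.0734. The GDF3 call was lost without BA replicate 1, t0 replicate 1, t0 replicate 2 or t0 replicate 3, with a highest adjusted p of 0.0943. Counts of higher members were 4 without the replicate block and 8 to 9 with 1 of the 6 libraries left out, lowest without t0 replicate 1 for the streak factors, and 3 without the replicate block and 6 to 7 with 1 of the 6 libraries left out, lowest without BA replicate 1, t0 replicate 1 or t0 replicate 2 for the Nodal targets.

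Some genes of later endoderm and mesoderm rose, several of them in BA replicate 1 above all. In the definitive endoderm list 4 of 10 tested genes were higher (GATA6, SOX17, HHEX and FOXA3) and none was lower, while DESeq2 called 3 higher and 1 lower. DESeq2 did not call SOX17 (adjusted p = 0.583) and called FOXA2 lower. Of 13 tested early mesoderm genes 3 were higher (KDR, HAND1 and ISL1) and DLL1 was lower. GATA6, an endoderm and cardiac mesoderm factor, had 37, 0.832 and 0.757 CPM in BA cells, against 0.109, 0 and 0 CPM in t0 cells, a ratio of 355 with a counting interval of 98.1 to 2940 over 2 counts at t0 (adjusted p = 1.6e-05). The GATA6 ratio pools the 3 BA libraries, and replicate 1 held most of the signal. SOX17, the defining endoderm factor, had 7.11, 0 and 0 CPM in BA cells, against 0, 0 and 0.035 CPM in t0 cells (ratio 127, counting interval 22.5 to 5068 over 1 count at t0, adjusted p = 0.0149). The whole SOX17 signal in BA thus came from replicate 1, and replicates 2 and 3 held no count. CDX2, a caudal factor of posterior mesoderm and of trophoblast, showed the same lean, with 5.54, 0.185 and 0.252 CPM in BA cells, against 0, 0 and 0.035 CPM in t0 cells (adjusted p = 0.00631). HHEX, a homeobox factor of anterior endoderm, was higher at 6 h than at 24 h: it had 4.48, 3.15 and 1.25 CPM at 6, 12 and 18 h, and 0.732, 1.51 and 1.29 CPM in BA cells, against 0, 0.129 and 0.14 CPM in t0 cells (log2 change 3.57 ± 0.69, adjusted p = 0.00742). FOXA2, a forkhead factor of endoderm, was lower in each BA library than in any t0 library but did not pass in the blocked fit, with 0.0523, 0.0308 and 0.0315 CPM in BA cells, against 1.52, 0.612 and 0.35 CPM in t0 cells (adjusted p = 0.0898). FOXA2 did pass as lower in DESeq2 (adjusted p = 0.027), and in edgeR with t0 replicate 1 left out (adjusted p = 0.00227). It had 3 counts in BA cells and 57 in t0 cells, a level lower in BA cells by a ratio of 20.3 with a counting interval of 6.6 to 101, and it stood at 5.09 CPM in E6 and 6.87 CPM in E8 at 24 h. CER1, an antagonist secreted by anterior endoderm, did not pass (28.3, 9.15 and 11.5 CPM in BA cells, against 13.8, 6.66 and 9.04 CPM in t0 cells, adjusted p = 0.849), although it stood at 67.6, 42.5 and 18.6 CPM at 6, 12 and 18 h in BA. KDR, the VEGF receptor of nascent mesoderm, had 140.2, 172 and 191 CPM in BA cells, against 100.05, 56.2 and 56.3 CPM in t0 cells (log2 change 1.33 ± 0.25, adjusted p = 0.00859). In the model with no replicate block, HHEX, KDR, CDX2, HAND1, GATA6, ISL1, DLL1, SOX17 and FOXA3 had adjusted p-values from 0.0622 to 0.807. The SOX17 and HAND1 calls were lost without BA replicate 1 or t0 replicate 1, with highest adjusted p-values of 0.876 and 0.106. The CDX2 and ISL1 calls were lost without t0 replicate 1, with highest adjusted p-values of 0.0903 and 0.257. The FOXA3 call was lost without any 1 of the 6 libraries, with a highest adjusted p of 0.199. The DLL1 call was lost without BA replicate 1, with a highest adjusted p of 0.0835. Counts of higher members were 0 without the replicate block and 2 to 3 with 1 of the 6 libraries left out, lowest without BA replicate 1 or t0 replicate 1 for the endoderm list, and 0 without the replicate block and 1 to 3 with 1 of the 6 libraries left out, lowest without t0 replicate 1 for the mesoderm list. Of 9 tested genes of blood and endothelium, edgeR called none, none had an unadjusted p below 0.05, and DESeq2 called none either.

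Several transcription factors of the amnion and trophoblast rose. Of 15 tested genes in that list 8 were higher and 2 were lower, with a median log2 change of 2.41. GATA3 had 195, 48 and 45.4 CPM in BA cells, against 0.922, 0.161 and 0.14 CPM in t0 cells (log2 change 7.89 ± 0.27, adjusted p = 2.95e-08). GATA2 had 29.7, 14.1 and 12.1 CPM in BA cells, against 0.326, 0 and 0.105 CPM in t0 cells (log2 change 7.15 ± 0.49, adjusted p = 9.25e-06). Both are zinc-finger factors of trophoblast and early amnion. GATA2 was at its 24 h level by 6 h, with 25.9, 31.8 and 27.9 CPM at 6, 12 and 18 h, while GATA3 climbed, with 60.7, 124 and 161 CPM. TFAP2A, an AP-2 factor of surface ectoderm and amnion, had 104, 25.7 and 21.4 CPM in BA cells, against 0.163, 0.0322 and 0.14 CPM in t0 cells (log2 change 8.61 ± 0.79, adjusted p = 0.000147). TFAP2C had 12, 10.3 and 10.1 CPM in BA cells, against 0.488, 1.03 and 2 CPM in t0 cells (log2 change 3.37 ± 0.46, adjusted p = 0.00149). KRT7, a keratin of trophoblast, fell (0.157, 1.26 and 0.946 CPM in BA cells, against 0.597, 3.54 and 2.45 CPM in t0 cells, log2 change -1.50 ± 0.33, adjusted p = 0.0151), and IGFBP3, an insulin-like growth factor binding protein, was the other member that fell (adjusted p = 0.0427). Of the members not called, GABRP, DLX3 and VTCN1 had log2 changes of -1.20, -0.31 and -0.07, DLX5 had 1.49, and WNT6 had no count. GATA2 and GATA3 are also on the BMP-SMAD target list. TBX3, a T-box factor induced by BMP, had 64.1, 0.616 and 1.17 CPM in BA cells, against 0.326, 0.0322 and 0 CPM in t0 cells (log2 change 7.14 ± 0.54, adjusted p = 2.25e-05), with replicate 1 far above replicates 2 and 3 in BA cells. In the model with no replicate block, GATA3, GATA2, TFAP2A and TFAP2C passed, while IGFBP3 had an adjusted p of 0.0872, TBX3 had an adjusted p of 0.288 and KRT7 had an adjusted p of 0.888. The KRT7 call was lost without BA replicate 2, BA replicate 3, t0 replicate 2 or t0 replicate 3, with a highest adjusted p of 0.0754. The IGFBP3 call was lost without BA replicate 1, BA replicate 2, BA replicate 3 or t0 replicate 1, with a highest adjusted p of 0.196. The list's count of higher members was 5 without the replicate block and 5 to 8 with 1 of the 6 libraries left out, lowest without t0 replicate 1.

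Some WNT ligands and targets rose. Of 15 tested WNT ligand genes 4 were higher (WNT3, WNT8A, WNT9B and WNT5B) and none was lower, a count of higher members that was 3 without the replicate block and 3 to 4 with 1 of the 6 libraries left out, lowest without BA replicate 1, t0 replicate 1, t0 replicate 2 or t0 replicate 3. WNT3, the ligand that starts the streak in the mouse embryo, had 139, 59 and 64.2 CPM in BA cells, against 2.33, 0.612 and 1.05 CPM in t0 cells (log2 change 6.10 ± 0.21, adjusted p = 2.95e-08). In the single BA libraries it had 27.3, 50.6 and 90.2 CPM at 6, 12 and 18 h, and at 24 h stood at 2.8 CPM in E6 and 2.31 CPM in E8. WNT8A had 22.9, 3.94 and 3.72 CPM in BA cells, against 0.271, 0.0966 and 0.035 CPM in t0 cells (log2 change 5.99 ± 0.58, adjusted p = 0.000106). Of 19 tested WNT targets 6 were higher and none was lower, a count that was 6 without the replicate block and 6 with any 1 of the 6 libraries left out. TCF7, a nuclear effector of the pathway, had 69.4, 26.8 and 29.1 CPM in BA cells, against 7.6, 8.92 and 9.43 CPM in t0 cells (log2 change 2.15 ± 0.36, adjusted p = 0.00436). NOTUM, an enzyme that inactivates WNT ligands, had 20.5, 3.76 and 3.75 CPM in BA cells and no count at t0 (adjusted p = 0.000217). Its mean over the 3 BA libraries was at least 76.8-fold higher than a floor of 3 counts per t0 library, with replicate 1 the highest. DKK1 and LEF1, further WNT targets, were high in BA replicate 1 alone, with 21.1, 0.216 and 0.504 CPM in BA cells, against 0.217, 0.193 and 0.0701 CPM in t0 cells for DKK1 and 25.5, 0.678 and 0.946 CPM in BA cells, against 0.922, 0.257 and 0.631 CPM in t0 cells for LEF1, and did not pass (adjusted p = 0.163 and 0.214). Group alone as the model left WNT3, WNT8A, WNT9B, TCF7 and NOTUM past the threshold, while WNT5B had an adjusted p of 0.151. The WNT5B call was lost without BA replicate 1, t0 replicate 1, t0 replicate 2 or t0 replicate 3, with a highest adjusted p of 0.16.

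SFRP1, a secreted WNT inhibitor, was among the most abundant transcripts to fall. It had 206, 154 and 150.3 CPM in BA cells, against 1404, 944 and 879 CPM in t0 cells (log2 change -2.64 ± 0.14, adjusted p = 9.71e-07), and 1062, 605 and 279 CPM at 6, 12 and 18 h. The single libraries without BMP4 and Activin A held 1523 CPM in E6 and 1436 CPM in E8, at or above the t0 libraries. Among 23 tested WNT antagonists and receptors 6 were higher and 3 were lower. ROR1, a WNT5A receptor, was lower, with 98.8, 89.7 and 102 CPM in BA cells, against 281, 168 and 166 CPM in t0 cells (log2 change -1.01 ± 0.16, adjusted p = 0.00273), and the frizzled receptor FZD4 was higher, with 90.9, 31.5 and 29.6 CPM in BA cells, against 12.7, 7.72 and 8.69 CPM in t0 cells (log2 change 2.22 ± 0.41, adjusted p = 0.00837). LRP4, a receptor that binds WNT and BMP antagonists, had 943, 295 and 317 CPM in BA cells, against 121, 61.7 and 59.1 CPM in t0 cells (log2 change 2.57 ± 0.22, adjusted p = 5.31e-05). When replicate number was left out of the model, SFRP1 and LRP4 passed, while FZD4 had an adjusted p of 0.0887 and ROR1 had an adjusted p of 0.186. In that list the count of higher members was 1 without the replicate block and 3 to 4 with 1 of the 6 libraries left out, lowest without BA replicate 1, t0 replicate 2 or t0 replicate 3, and of lower members 1 without the replicate block and 2 with any 1 of the 6 libraries left out.

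**Figure D2:**
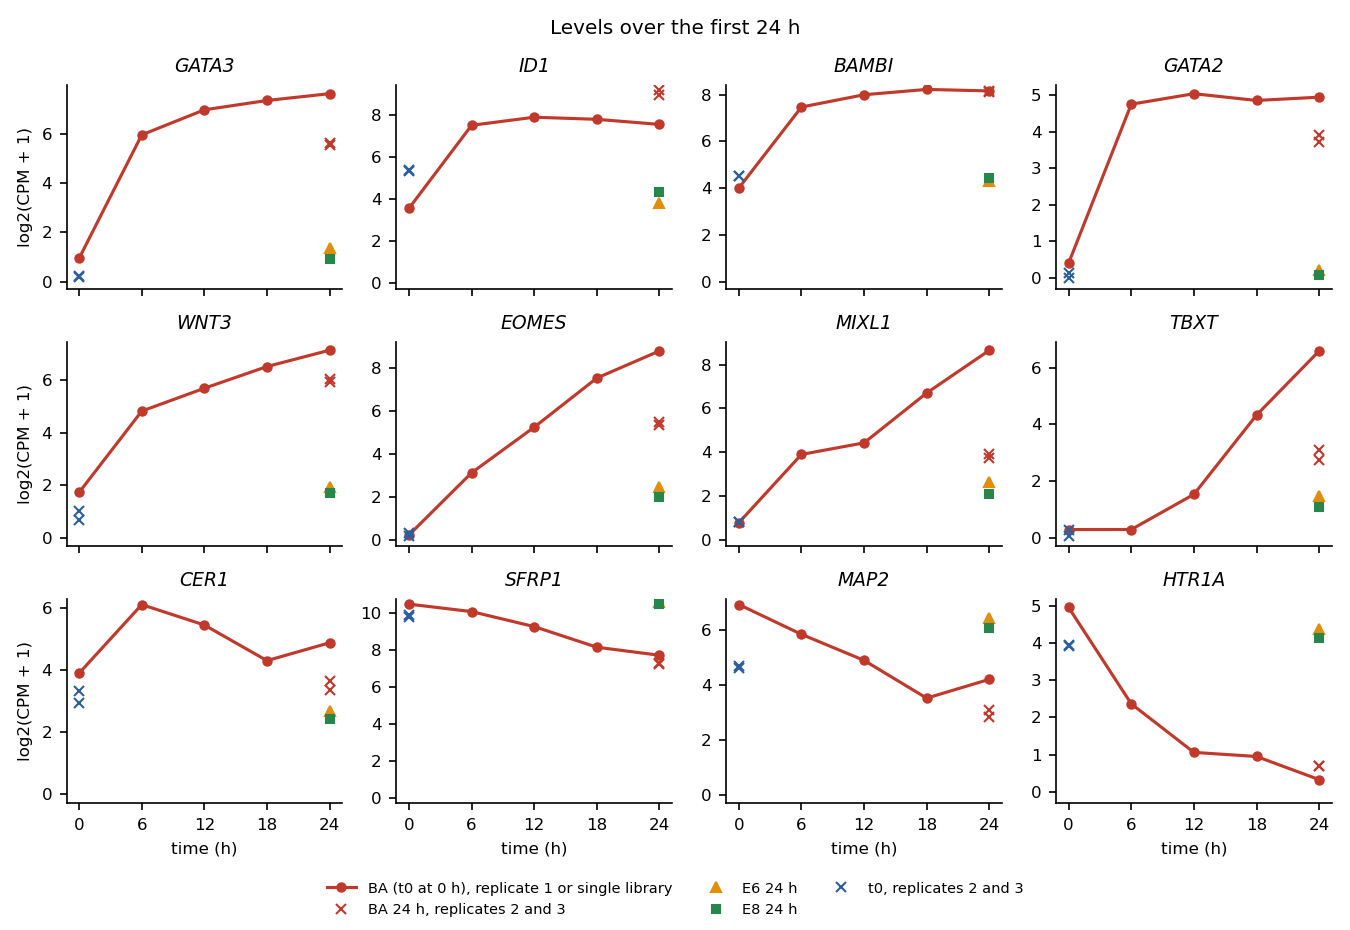
Levels of 12 genes, as log2(CPM + 1) on the y axis, against time on the x axis. The red line joins t0 replicate 1, the single BA libraries at 6, 12 and 18 h and BA replicate 1 at 24 h, crosses are replicates 2 and 3 of t0 (blue) and BA (red), the orange triangle is the E6 library and the green square the E8 library at 24 h. ID1, BAMBI and GATA2 are near the 24 h level of replicate 1 at 6 h, EOMES, MIXL1 and TBXT climb up to 24 h, CER1 is highest at 6 h, and SFRP1, MAP2 and HTR1A are lower in BA at 24 h than in E6 or E8.

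Some FGF ligands and receptors rose, and of the ERK targets 1 fell. Of 21 tested FGF ligands and receptors 6 were higher and none was lower. FGF4, a ligand of the streak and of pluripotent cells, had 9.83, 3.57 and 2.62 CPM in BA cells, against 0.109, 0.0966 and 0.035 CPM in t0 cells (log2 change 5.86 ± 0.62, adjusted p = 0.000192). FGFR3 had 224, 136 and 133 CPM in BA cells, against 51.4, 22 and 22.8 CPM in t0 cells (log2 change 2.39 ± 0.38, adjusted p = 0.00406). Among 18 tested FGF-ERK targets, edgeR gave 5 an unadjusted p below 0.05, and DESeq2 called 2 higher and 2 lower. In the edgeR test none was higher and 1 was lower, against 5.79% and 3.11% of all genes tested. That gene, DUSP4, a phosphatase that acts on ERK, had 19.5, 12.4 and 11.3 CPM in BA cells, against 51.3, 36 and 33.6 CPM in t0 cells (log2 change -1.49 ± 0.26, adjusted p = 0.00472). DUSP6 and SPRY4 are feedback inhibitors often read as ERK activity. DUSP6 had 297, 256 and 252 CPM in BA cells, against 364, 270.5 and 236 CPM in t0 cells. SPRY4 had 478, 253 and 268 CPM in BA cells, against 352, 266 and 239 CPM in t0 cells, and neither passed (adjusted p = 0.932 and 0.867). The count of higher FGF ligands and receptors was 3 without the replicate block and 4 to 5 with 1 of the 6 libraries left out, lowest without BA replicate 2, BA replicate 3, t0 replicate 1 or t0 replicate 2. In the Notch list 3 of 17 tested genes were higher and 1 was lower. The count of higher members was 0 without the replicate block and 2 to 3 with 1 of the 6 libraries left out, lowest without BA replicate 1, t0 replicate 1, t0 replicate 2 or t0 replicate 3, and of lower members 0 without the replicate block and 0 to 1 with 1 of the 6 libraries left out, lowest without BA replicate 1. HEY1, a transcriptional repressor that Notch and BMP signals induce, had 68.2, 25.4 and 19.9 CPM in BA cells, against 5.75, 1.22 and 1.75 CPM in t0 cells (log2 change 3.82 ± 0.31, adjusted p = 2.58e-05) and 94.2, 116 and 104 CPM at 6, 12 and 18 h. With no block for replicate, FGF4, FGFR3 and DUSP4 passed the test, while HEY1 had an adjusted p of 0.138.

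Most pluripotency genes did not pass the test at 24 h. Of 25 tested primed pluripotency genes 4 were higher (POU5F1, SFRP2, SALL4 and GDF3) and 1 was lower, with a median log2 change of -0.25. Among the 25, edgeR gave 8 an unadjusted p below 0.05, and DESeq2 called 4 higher and 2 lower. Replicates 2 and 3 alone called 6 of the 25 higher and 8 lower. POU5F1, the core factor OCT4, had 890.4, 3218 and 2251 CPM in BA cells, against 466, 1382 and 1044 CPM in t0 cells (log2 change 1.08 ± 0.30, adjusted p = 0.0469). It differed between replicates 1 and 2 of the same group by more than between the groups, and the BA library was above the t0 library within each replicate number. NANOG had 42.1, 107 and 102 CPM in BA cells, against 27.3, 56.5 and 58 CPM in t0 cells (adjusted p = 0.353). SOX2, which neural cells also use, had 68.1, 191 and 182 CPM in BA cells, against 232, 214 and 209.6 CPM in t0 cells (adjusted p = 0.701): BA replicate 1 was below t0 replicate 1, and replicates 2 and 3 were close to theirs. The de novo methyltransferase DNMT3B had 726, 1089.6 and 1109 CPM in BA cells, against 1658, 1636 and 1632 CPM in t0 cells and did not pass (adjusted p = 0.261). Among 7 tested naive pluripotency genes 3 were higher and none was lower: TBX3, KLF4 and SUSD2. TBX3 is also on the streak and BMP-SMAD target lists. Its rise came mostly from replicate 1, and without the replicate block its adjusted p was 0.288. KLF4 had 3.4, 4.65 and 4.98 CPM in BA cells, against 0.868, 1.16 and 0.911 CPM in t0 cells (log2 change 2.21 ± 0.50, adjusted p = 0.0171), and SUSD2, a surface marker, had 9.72, 14.1 and 13.5 CPM in BA cells, against 3.85, 6.73 and 5.33 CPM in t0 cells (log2 change 1.25 ± 0.14, adjusted p = 0.000381). With group alone in the model, SUSD2, SFRP2, KLF4, SALL4 and POU5F1 had adjusted p-values from 0.0658 to 0.807. The POU5F1, SFRP2 and SALL4 calls were lost without any 1 of the 6 libraries, with highest adjusted p-values of 0.181, 0.168 and 0.208. The KLF4 call was lost without BA replicate 1, t0 replicate 2 or t0 replicate 3, with a highest adjusted p of 0.095. For the primed list the count of higher members was 0 without the replicate block and 0 to 1 with 1 of the 6 libraries left out, lowest without BA replicate 1, t0 replicate 1, t0 replicate 2 or t0 replicate 3, and for the naive list 0 without the replicate block and 2 to 3 with 1 of the 6 libraries left out, lowest without BA replicate 1, t0 replicate 2 or t0 replicate 3.

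Several neural genes fell. Of 19 tested neuroectoderm genes 5 were lower (MAP2, SIX6, LMO3, SOX1 and NR2F1) and none was higher, with a median log2 change of -1.45. Among the 19, edgeR gave 11 an unadjusted p below 0.05, and DESeq2 called 5 lower and none higher. These 5 include MAP2, SIX6 and LMO3 but not SOX1 or NR2F1. MAP2, a microtubule protein of neurons, had 17.6, 6.19 and 7.5 CPM in BA cells, against 122, 23.8 and 25 CPM in t0 cells (log2 change -2.24 ± 0.31, adjusted p = 0.00149). SIX6, an eye-field factor, had 4.29, 5.82 and 3.37 CPM in BA cells, against 28.3, 36 and 19.2 CPM in t0 cells (log2 change -2.60 ± 0.67, adjusted p = 0.0372). SOX1, an early neural plate factor, had 0.261, 0 and 0 CPM in BA cells, against 5.26, 0 and 0 CPM in t0 cells (log2 change -4.10 ± 0.74, adjusted p = 0.0186), so its call rests on t0 replicate 1 and BA replicate 1. DESeq2 gave SOX1 an adjusted p of 0.891. NR2F1, a nuclear receptor, had 0.732, 0 and 0 CPM in BA cells, against 3.85, 0.0322 and 0 CPM in t0 cells (log2 change -2.42 ± 0.55, adjusted p = 0.0337), where replicate 1 again carried the change, and DESeq2 gave it an adjusted p of 0.109. OTX2, a forebrain and epiblast factor, was lower in BA in each replicate (13.9, 23.8 and 26.6 CPM in BA cells, against 40.1, 71.2 and 65.1 CPM in t0 cells) but did not pass (adjusted p = 0.246). Outside the list, HTR1A, a serotonin receptor, had 0.261, 0.616 and 0.63 CPM in BA cells, against 29.9, 14.2 and 14.5 CPM in t0 cells (log2 change -5.06 ± 0.63, adjusted p = 0.000885). VGF, a neuropeptide precursor, had 16.4, 15.6 and 25.1 CPM in BA cells, against 139, 147 and 205 CPM in t0 cells (log2 change -3.13 ± 0.65, adjusted p = 0.0155). HMX2, a homeobox factor of the inner ear and hypothalamus, had 1.83, 1.91 and 2.21 CPM in BA cells, against 8.19, 19.1 and 13.9 CPM in t0 cells (log2 change -2.76 ± 0.31, adjusted p = 0.0003). HTR1A stood at 19.8 CPM in E6 and 16.6 CPM in E8 at 24 h, and VGF at 55.3 CPM in E6 and 55.3 CPM in E8. For VGF the E6 and E8 libraries were thus also below t0. Group alone as the model left HTR1A and HMX2 past the threshold, while MAP2, VGF, LMO3, SIX6, SOX1 and NR2F1 had adjusted p-values from 0.136 to 1. The SIX6 call was lost without BA replicate 1, BA replicate 2, BA replicate 3, t0 replicate 2 or t0 replicate 3, with a highest adjusted p of 0.166. The LMO3 call was lost without BA replicate 1, t0 replicate 2 or t0 replicate 3, with a highest adjusted p of 0.087. The SOX1 call was lost without BA replicate 1 or t0 replicate 1, with a highest adjusted p of 0.872. The NR2F1 call was lost without BA replicate 1, BA replicate 2, t0 replicate 1, t0 replicate 2 or t0 replicate 3, with a highest adjusted p of 0.762. The VGF call was lost without BA replicate 2, BA replicate 3 or t0 replicate 1, with a highest adjusted p of 0.0716. The list's count of lower members was 0 without the replicate block and 1 to 4 with 1 of the 6 libraries left out, lowest without BA replicate 1. None of 8 tested neural crest genes passed in edgeR, 3 had an unadjusted p below 0.05, and DESeq2 called 1 lower.

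**Figure D3:**
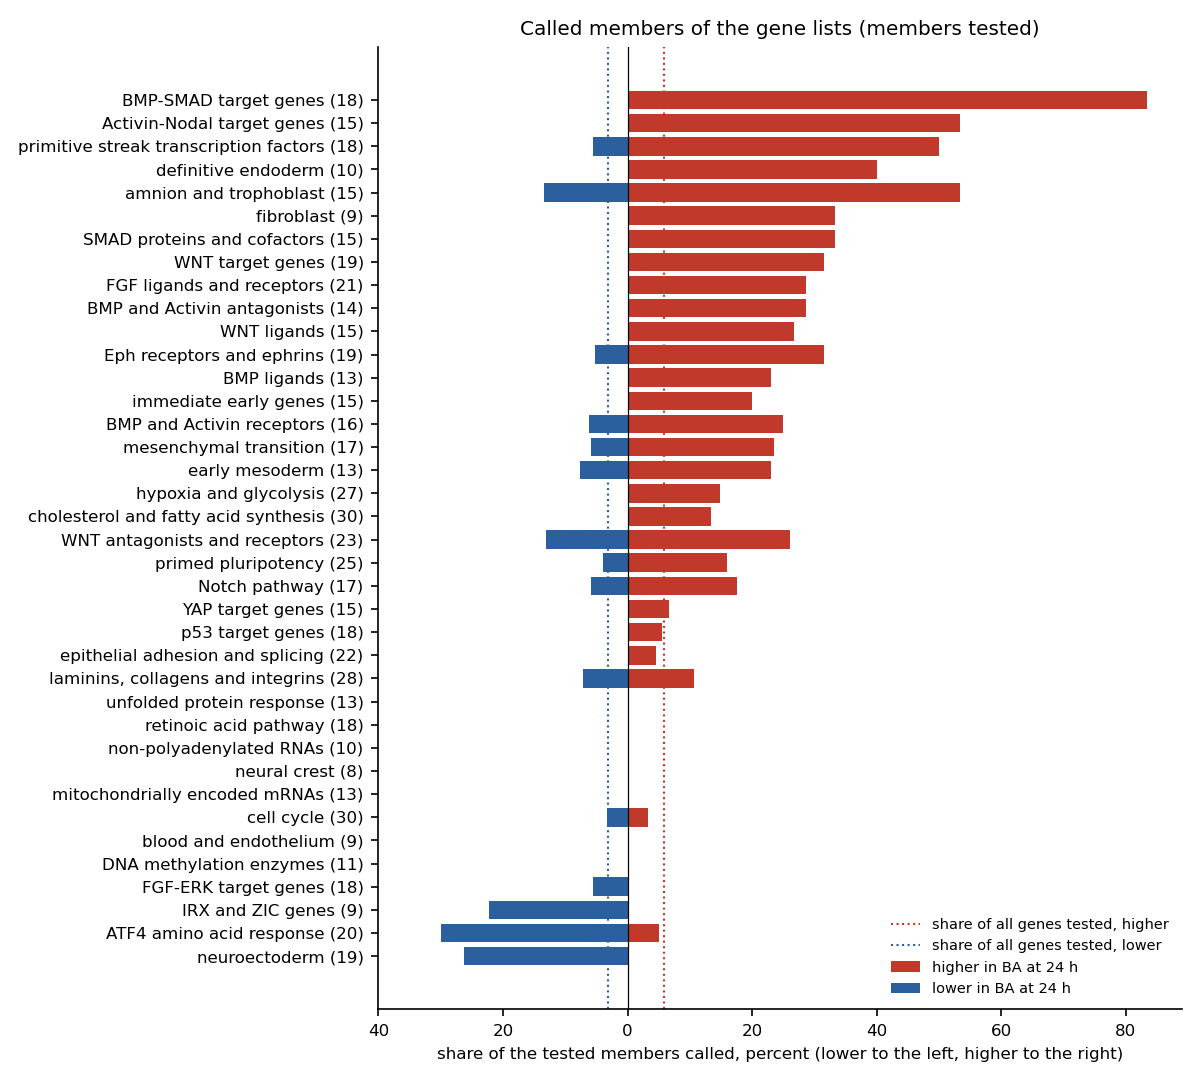
Share of the tested members of each gene list that passed the test, in percent, with members higher in BA to the right (red) and lower to the left (blue), and the number of members tested in parentheses. Dotted lines mark the shares over all genes tested, 5.79% higher and 3.11% lower. BMP-SMAD targets stand at 15 of 18 higher, and neuroectoderm (5 of 19) and the ATF4 response (6 of 20) lie furthest to the left.

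Several of the largest changes lie outside these lists. PCAT14, a long noncoding RNA of endogenous retroviral sequence whose reads may be shared with like copies, had 3107, 618 and 739 CPM in BA cells, against 1.25, 1.58 and 1.09 CPM in t0 cells (log2 change 9.77 ± 0.54, adjusted p = 6.07e-06). No other called gene rose by as much in mean CPM. It stood at 174, 944 and 2077 CPM at 6, 12 and 18 h and at 26.1 CPM in E6 and 12.2 CPM in E8 at 24 h. SAMD11, a SAM domain protein, had 96.3, 64.5 and 50.9 CPM in BA cells, against 0.0543, 0.257 and 0.105 CPM in t0 cells (log2 change 8.76 ± 0.50, adjusted p = 4.75e-06). FAM20A, a pseudokinase of the secretory pathway, had 53.7, 58.9 and 56.1 CPM in BA cells, against 0.434, 0.869 and 0.666 CPM in t0 cells (log2 change 6.65 ± 0.52, adjusted p = 4.2e-05), with the 3 BA libraries close together. NTS, the neurotensin precursor that endoderm also expresses, had 909, 512 and 478 CPM in BA cells, against 57.6, 33.4 and 31.3 CPM in t0 cells (log2 change 3.95 ± 0.44, adjusted p = 0.000594). Among the falls, FAM65B had 4.49, 7.76 and 10.5 CPM in BA cells, against 131, 88 and 92.1 CPM in t0 cells (log2 change -3.90 ± 0.40, adjusted p = 0.000345). SORBS2, an adaptor of the actin cytoskeleton, had 12, 19.6 and 24.4 CPM in BA cells, against 133, 125 and 136 CPM in t0 cells (log2 change -2.91 ± 0.35, adjusted p = 0.000781). ADAMTS8, a secreted metalloprotease, had 2.51, 5.73 and 5.2 CPM in BA cells, against 31.4, 32.6 and 29.8 CPM in t0 cells (log2 change -2.78 ± 0.48, adjusted p = 0.00562). LRAT, the enzyme that esterifies retinol, had 25, 18.8 and 20.2 CPM in BA cells, against 153, 135 and 109 CPM in t0 cells (log2 change -2.63 ± 0.50, adjusted p = 0.00936). LRAT aside, none of 18 tested retinoic acid pathway genes passed in edgeR, where 6 had an unadjusted p below 0.05, and DESeq2 called 2 lower. When replicate number was left out of the model, PCAT14, SAMD11, FAM20A, NTS, FAM65B, SORBS2 and ADAMTS8 passed, while LRAT had an adjusted p of 0.129. The LRAT call was lost without BA replicate 1 or t0 replicate 3, with a highest adjusted p of 0.051.

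Some matrix and mesenchymal genes rose. Of 17 tested genes of mesenchymal transition 4 were higher (FN1, MMP2, MMP9 and LOX) and TNC was lower, and of 22 tested genes of epithelial adhesion and splicing 1 was higher, OVOL2. Over all genes tested 5.79% were higher and 3.11% lower, and the epithelial count does not stand out from these shares. The epithelial list held 6 genes with an unadjusted p below 0.05, and DESeq2 called 2 higher and 1 lower. Fibronectin (FN1) had 1492, 299.8 and 376 CPM in BA cells, against 287, 112 and 112 CPM in t0 cells (log2 change 1.90 ± 0.23, adjusted p = 0.00059). Of the gelatinases, MMP2 had 606, 329 and 309.9 CPM in BA cells, against 123, 82.3 and 71.9 CPM in t0 cells (log2 change 2.13 ± 0.10, adjusted p = 4.05e-07). MMP9 had 19.1, 23 and 20.6 CPM in BA cells, against 3.96, 4.83 and 5.12 CPM in t0 cells (log2 change 2.17 ± 0.21, adjusted p = 0.000103), with levels that differed little between replicates of a group. Of 9 tested fibroblast markers 3 were higher: POSTN, with 95.1, 17 and 20.2 CPM in BA cells, against 12.7, 2.09 and 2.03 CPM in t0 cells (log2 change 3.05 ± 0.49, adjusted p = 0.00374), and COL1A2 and PDGFRB, which changed by 1.19 ± 0.20 and 1.75 ± 0.34 (adjusted p = 0.00413 and 0.00995). The fibroblast list summed to 457 to 762 CPM in the BA libraries and 296 to 530.1 CPM in the t0 libraries, with COL3A1 at 0 in t0 replicates 2 and 3 and BA replicate 2, and its part in the matrix genes was not tested. The basement membrane collagen COL4A1 fell, with 231, 87.8 and 112 CPM in BA cells, against 357, 153 and 162 CPM in t0 cells (log2 change -0.65 ± 0.12, adjusted p = 0.00498). Of 19 tested Eph receptors and ephrins 6 were higher and EFNB1 was lower, where EFNB1 had 46.1, 15.8 and 15.4 CPM in BA cells, against 100.05, 30.7 and 27.4 CPM in t0 cells (log2 change -0.96 ± 0.20, adjusted p = 0.0115). With no block for replicate, MMP2, MMP9 and LOX passed the test, while COL1A2, PDGFRB, FN1, OVOL2, POSTN, TNC, COL4A1 and EFNB1 had adjusted p-values from 0.136 to 0.973. The LOX and EFNB1 calls were lost without BA replicate 1, t0 replicate 2 or t0 replicate 3, with highest adjusted p-values of 0.0565 and 0.0726. The TNC call was lost without BA replicate 1, BA replicate 2, t0 replicate 1, t0 replicate 2 or t0 replicate 3, with a highest adjusted p of 0.157. The OVOL2 call was lost without BA replicate 2, BA replicate 3, t0 replicate 2 or t0 replicate 3, with a highest adjusted p of 0.102. The PDGFRB call was lost without BA replicate 1 or t0 replicate 2, with a highest adjusted p of 0.062. In the mesenchymal list the count of higher members was 3 without the replicate block and 3 to 4 with 1 of the 6 libraries left out, lowest without BA replicate 1, t0 replicate 2 or t0 replicate 3, and of lower members 0 without the replicate block and 0 to 1 with 1 of the 6 libraries left out, lowest without BA replicate 1, BA replicate 2, t0 replicate 1, t0 replicate 2 or t0 replicate 3. In the epithelial list the count of higher members was 0 without the replicate block and 0 to 2 with 1 of the 6 libraries left out, lowest without BA replicate 3, t0 replicate 2 or t0 replicate 3, and among the fibroblast markers it was 0 without the replicate block and 2 to 3 with 1 of the 6 libraries left out, lowest without BA replicate 1 or t0 replicate 2. The Eph list's count of higher members was 0 without the replicate block and 3 to 6 with 1 of the 6 libraries left out, lowest without t0 replicate 2 or t0 replicate 3.

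Some genes of hypoxia rose and some of the amino acid response fell. Of 27 tested genes of hypoxia and glycolysis 4 were higher (PDK1, KDM3A, EGLN3 and PFKFB4) and none was lower. PDK1, the kinase that shuts off pyruvate dehydrogenase, had 310.5, 222 and 251 CPM in BA cells, against 70.5, 53.4 and 62.4 CPM in t0 cells (log2 change 2.08 ± 0.35, adjusted p = 0.00546), and EGLN3, an oxygen sensor, had 96.9, 124 and 123 CPM in BA cells, against 12.3, 24.3 and 23.3 CPM in t0 cells (log2 change 2.60 ± 0.41, adjusted p = 0.00388). Both stood near their t0 level at 24 h without the added factors, with 83 CPM in E6 and 72.2 CPM in E8 for PDK1 and 15.6 CPM in E6 and 16.9 CPM in E8 for EGLN3. The glycolytic enzymes ENO1, GAPDH and PKM did not pass. Of 20 tested genes of the ATF4 amino acid response 6 were lower and 1 was higher. TRIB3, a pseudokinase of that response, had 11.9, 16.9 and 18.9 CPM in BA cells, against 28.2, 34 and 39.7 CPM in t0 cells (log2 change -1.10 ± 0.15, adjusted p = 0.00118). PSAT1, an enzyme of serine synthesis, had 226, 378 and 377 CPM in BA cells, against 455, 512 and 531 CPM in t0 cells (log2 change -0.63 ± 0.13, adjusted p = 0.00986). Asparagine synthetase (ASNS) was the member that rose, with 269, 437 and 420.5 CPM in BA cells, against 181, 278 and 289 CPM in t0 cells (log2 change 0.59 ± 0.12, adjusted p = 0.0118). The chaperone HSP90AB1 had the largest fall in mean CPM among called genes with one sign in all 3 replicates, with 2353, 3027 and 3086 CPM in BA cells, against 3425, 4015 and 4074 CPM in t0 cells (log2 change -0.45 ± 0.09, adjusted p = 0.0118). None of 13 tested genes of the unfolded protein response and none of 13 mitochondrially encoded mRNAs passed in edgeR, none of either had an unadjusted p below 0.05, and DESeq2 called none. In the model with no replicate block, PDK1, EGLN3, KDM3A and TRIB3 passed, while PFKFB4, PSAT1, HSP90AB1 and ASNS had adjusted p-values from 0.193 to 0.808. The PFKFB4 call was lost without BA replicate 1, BA replicate 2, BA replicate 3, t0 replicate 2 or t0 replicate 3, with a highest adjusted p of 0.131. The PSAT1 call was lost without t0 replicate 3, with a highest adjusted p of 0.0544. The ASNS and HSP90AB1 calls were lost without BA replicate 1, t0 replicate 2 or t0 replicate 3, with highest adjusted p-values of 0.07 and 0.0732. The ATF4 count of lower members was 1 without the replicate block and 2 to 5 with 1 of the 6 libraries left out, lowest without BA replicate 1, t0 replicate 2 or t0 replicate 3, and the hypoxia count of higher members 3 without the replicate block and 3 to 8 with 1 of the 6 libraries left out, lowest without BA replicate 2, BA replicate 3, t0 replicate 2 or t0 replicate 3. In the cell cycle list 1 of 30 tested genes was higher, the D-type cyclin CCND2 (log2 change 0.70 ± 0.15, adjusted p = 0.0113), and 1 was lower, the inhibitor CDKN1B (log2 change -0.44 ± 0.10, adjusted p = 0.0225). Over all genes tested 5.79% were higher and 3.11% lower, so neither count stands out. When replicate number was left out of the model, CCND2 had an adjusted p of 0.134 and CDKN1B had an adjusted p of 0.936. The CCND2 call was lost without BA replicate 1, t0 replicate 2 or t0 replicate 3, with a highest adjusted p of 0.0657. The CDKN1B call was lost without BA replicate 2, BA replicate 3, t0 replicate 1 or t0 replicate 3, with a highest adjusted p of 0.0841.

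The size of the change differed between replicates for many genes. A test of the difference, replicate 1 against replicates 2 and 3, called 1105 of 21554 genes (5.13%), 444 (2.06%) with a positive and 661 (3.07%) with a negative difference. Of the 1105 genes, 903 changed more in replicate 1, and 414 changed in opposite directions. Of the 1918 genes called in BA against t0, 241 also differed in this test. MIXL1 rose by 7.89, 2.93 and 3.12 in replicates 1, 2 and 3 on the log2(CPM + 1) scale, a difference of 5.0 ± 0.33 in log2 between replicate 1 and the others (adjusted p = 1.34e-06). EOMES rose by 8.57, 5.05 and 5.31, a difference of 3.57 ± 0.85 (adjusted p = 0.0338). GATA3 rose by 6.67, 5.40 and 5.35, and its difference did not pass (adjusted p = 0.684). On simulated data this test recovered 0 of 100 differences of 2-fold and 11 of 100 of 4-fold. A gene that did not pass, GATA3 included, may therefore still differ between replicates. PDE4C, a phosphodiesterase, was high in BA replicates 2 and 3 alone, with 0.836, 29.8 and 48.7 CPM in BA cells, against 0.597, 1.64 and 1.58 CPM in t0 cells.

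**Figure D4:**
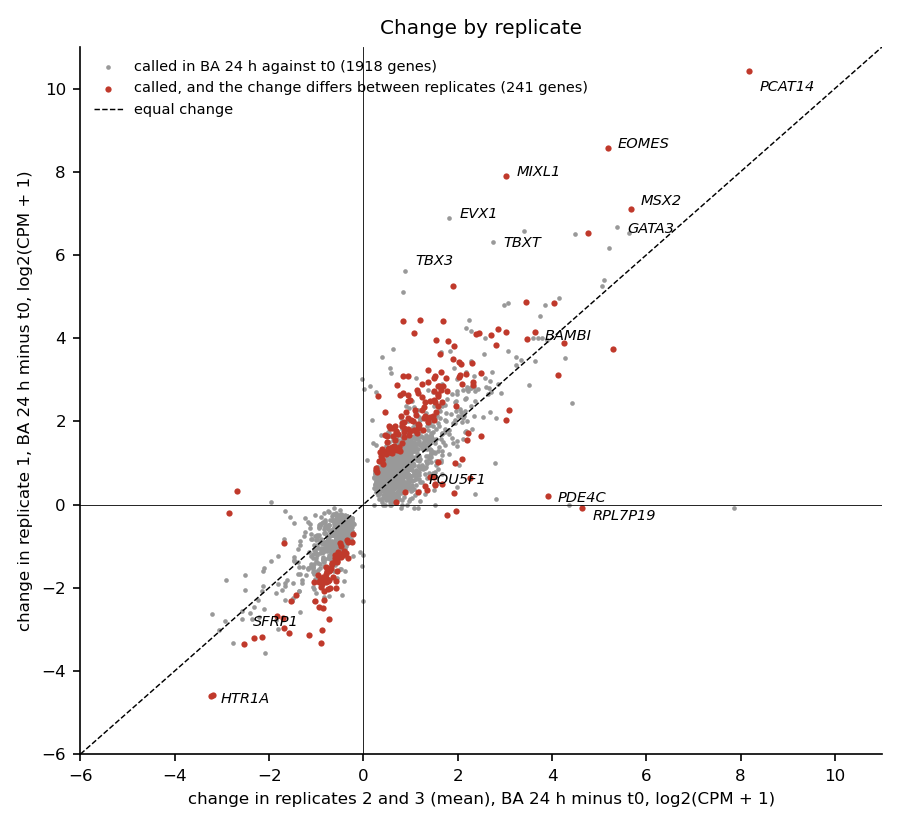
Change from t0 to BA at 24 h in replicate 1 (y axis) against the mean change in replicates 2 and 3 (x axis), both in log2(CPM + 1), for the 1918 called genes. The 241 red points also passed the test of the difference between replicate 1 and replicates 2 and 3, and the dashed line marks an equal change. Most points lie above 0 on both axes or below 0 on both, EOMES, MIXL1 and EVX1 lie above the line, and PDE4C and RPL7P19 lie below it.

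Replicates 2 and 3 alone, fitted without any replicate 1 library, called 5656 of 21822 genes (25.9%), 2996 higher (13.7%) and 2660 lower (12.2%). The genes so called were then read in the libraries that this fit did not use. Of the 2996 genes that were higher, 799 (26.7%) were at least 2-fold higher in BA replicate 1 than in t0 replicate 1, against 4.36% of all genes tested, and 12 were at least 2-fold lower. Against the E6 library at 24 h 659 (22%) were at least 2-fold higher in BA replicate 1, against 3.68% of all genes. Against the E8 library at 24 h 779 (26%) were, against 4.92% of all genes. Of the 2660 genes that were lower, 424 (15.9%) were at least 2-fold lower in BA replicate 1 than in t0 replicate 1, 381 (14.3%) than in E6 and 394 (14.8%) than in E8, against 2.52%, 2.36% and 3.38% of all genes. The 3 comparisons share BA replicate 1, and none has a replicate.

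**Figure D5:**
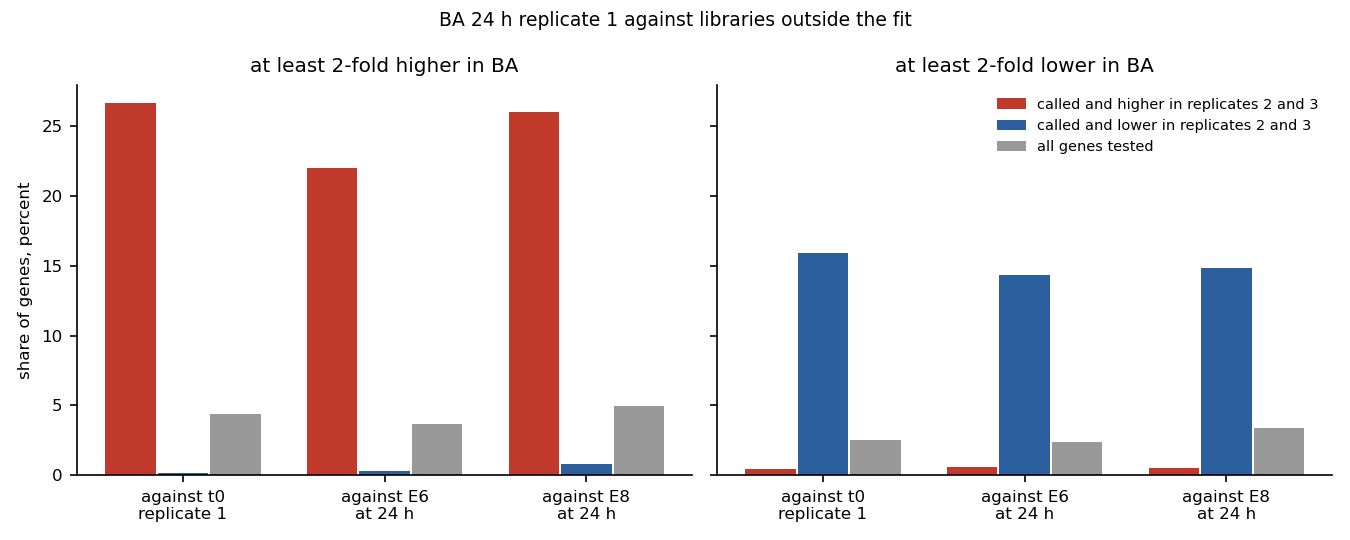
Share of genes, in percent on the y axis, at least 2-fold higher (left) or at least 2-fold lower (right) in BA replicate 1 than in t0 replicate 1, the E6 library at 24 h or the E8 library at 24 h. Red bars are the 2996 genes called higher in replicates 2 and 3, blue bars the 2660 called lower, and grey bars all 21822 genes tested. Red bars reach 22% to 26.7% on the left and blue bars 14.3% to 15.9% on the right.

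The authors' deposited table for BA at 24 h lists 904 genes at an adjusted p below 0.05, 641 with a positive and 263 with a negative log2 fold change. Of these, 731 were also among the 1918 called here, which is 80.9% of the authors' genes and 38.1% of the 1918. For EOMES the authors' deposited table gives a log2 fold change of 3.41 with an adjusted p of 4.11e-08, and the fit here gave 9.43 ± 0.68. For BAMBI it gives 3.66 against 3.87 ± 0.20 here, and for ACVR1 1.55 against 1.60 ± 0.19. Some genes called here did not pass there, among them GATA6 (0.664, adjusted p = 0.73), TBX3 (1.18, adjusted p = 0.234) and EVX1 (1.47, adjusted p = 0.0838). The header of that table does not name the group BA was set against, and its model is not given in the sources used here, so the contrasts may not be the same.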

How the data were processed

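Poly(A) RNA of H9 cells was read from the deposited gene-level counts, which are unnormalised reads per GENCODE 23 gene symbol per the file headers. The authors used featureCounts, DESeq2 and hg38, per the submitters' processing notes. The aligner, all versions and the strand setting are not given in the sources used here, so genes that overlap on opposite strands cannot be told apart. The authors' deposited table gives log2 fold changes and p-values and was used only where named.

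The 15 libraries of the 5 groups with 3 replicates (t0, BA at 24 h and BA, E6 and E8 at 48 h) were fitted together with group and replicate number in edgeR 4.0.16 (limma 3.58.1, R 4.3.3). The steps were filterByExpr, TMM scaling and the robust quasi-likelihood F-test, with 8 residual degrees of freedom and Benjamini-Hochberg adjustment over all genes tested. CPM uses the TMM-scaled library sizes. DESeq2 1.42.0 was an alternative, as were RLE size factors, other filters, other blocks and leaving out each library. Figures were drawn with matplotlib 3.10.9 in Python 3.11.15. The fit with the block, the fit without it, the fit of replicates 2 and 3 and the test between replicates were tested on simulated data. Counting intervals, and floors of 3 counts, cover counting error only.

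Replicate numbers come from the labels, which do not say what a number shares or that replicates are separate cultures, so p-values measure only the spread between these samples, which may be technical. Deviations of same-numbered BA and t0 libraries from their group means correlated at r = 0.854, 0.736 and 0.709 for replicates 1, 2 and 3, and different-numbered replicates 2 and 3 at 0.679 and 0.666. Replicates 2 and 3 differed beyond sampling noise in BA and at t0, with a chi-square per degree of freedom of 16.5 and 12 (n = 3 libraries per group throughout). In the test of the difference between replicates the lone replicate 1 library of each group was assumed to vary like replicates 2 and 3.

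The comparison, the gene lists and the rule for named genes were chosen with earlier results of these data known. The rule took streak, endoderm, pluripotency and neural factors, the 15 largest rises and falls in log2 change and the 8 in CPM among called genes of at least 10 CPM with one sign in all replicates, the most abundant called and uncalled members of each list, and the 6 largest differences each way between replicates. Which of the genes it gave are printed, and COL3A1 and FOXA2, were chosen after values were seen. Sex-linked checks were left out, and a few genes are not reported here.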

Additional observations from a re-analysis of the deposited data

Results flagged for a closer look

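In 11 genes the change from t0 to BA at 24 h differed between replicate 1 and replicates 2 and 3 by edgeR's test of that difference, all with some of the largest differences among genes of at least 10 CPM in any of the 6 libraries. The differences below are log2 changes in replicate 1 minus those in replicates 2 and 3, and mitochondrial and ribosomal protein shares, which also move with the replicate, were not tested for a part in them.

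SP6, a zinc-finger factor, differed by 7.35 ± 0.37, with 56, 1.69 and 1.48 CPM in BA cells, against 0.163, 0.869 and 0.666 CPM in t0 cells. MSX1 differed by 6.87 ± 0.71, DKK1 by 5.18 ± 0.89, MIXL1 by 5.0 ± 0.33 and LEF1 by 3.90 ± 0.57, and in each of these genes BA replicate 1 was the highest of the 6 libraries. CH507-152C13.1, a gene named by a clone, differed by 3.95 ± 0.57, with 16.4, 0.277 and 0.378 CPM in BA cells, against 1.09, 0.257 and 0.421 CPM in t0 cells.

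RPL7P19, a processed pseudogene of a ribosomal protein gene whose reads may be shared with near-identical copies, differed by -7.13 ± 1.03, with 0.157, 32.6 and 30.2 CPM in BA cells, against 0.217, 0.161 and 0.456 CPM in t0 cells. IGFBP5, an insulin-like growth factor binding protein, differed by -5.18 ± 0.26, with 5.17, 1.02 and 1.39 CPM in BA cells, against 158, 0.933 and 1.09 CPM in t0 cells. STC1, a secreted glycoprotein, differed by -4.59 ± 0.23, with 2.61, 31.8 and 40.6 CPM in BA cells, against 24.5, 13.6 and 14.6 CPM in t0 cells. EPHA3, an ephrin receptor, differed by -4.33 ± 0.46, with 0.941, 0.462 and 0.946 CPM in BA cells, against 11.4, 0.418 and 0.421 CPM in t0 cells. For IGFBP5 and EPHA3 the t0 replicate 1 library was the high one. PDE4C differed by -4.12 ± 0.85.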

How the results depend on the processing

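The count of 1918 called genes (1248 higher, 670 lower) moved by more than 1.5 times with several settings. Without the replicate block it was 331 (264 higher, 67 lower). With the block it was 3425 (1984 higher, 1441 lower) from the 6 libraries alone and 5656 (2996 higher, 2660 lower) from replicates 2 and 3 alone, and DESeq2 called 1214 lower genes among 2845. The last 3 settings shared 1726, 1881 and 1876 genes with the 1918. Leaving out BA replicate 1, 2 or 3 gave 1096 (778 higher, 318 lower), 1361 (971, 390) and 1266 (890, 376), and leaving out t0 replicate 1, 2 or 3 gave 1355 (903, 452), 939 (637, 302) and 921 (620, 301). Each of these fits lacks a library, and why calls were lost in them was not tested. A block of 2 levels (2184), RLE size factors (1928), no filter (1583) and a filter of 1 CPM (1925) stayed within 1.5 times. No scaling moved the median of all genes by over 0.1. The test between replicates called 1105 genes, 1660 with a term for replicate 2 against 3, and 711 to 811 with a library of replicate 2 or 3 left out.

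Of 108 called genes named in the text, 44 remained called without the replicate block and 62 whichever of the 6 libraries was left out. Signs turned in 8 genes, SOX17 being the one that had been called. In replicates 2 and 3 alone the log2 change was -2.40 for SOX17 (1 count in those 4 libraries), -0.060 for CH507-152C13.1, 0.23 for IGFBP5 and 0.71 for EPHA3. Without BA replicate 1 it was 0.095 for DUSP6, -0.089 for CH507-152C13.1 and -0.93 for COL3A1. Without t0 replicate 1 it was -0.15 for CER1, 0.71 for IGFBP5 and 0.79 for EPHA3. STC1 had -0.14 and -0.44 without BA replicate 2 and 3, and -0.30 and -0.29 without t0 replicate 2 and 3. The cause was not tested. Depth limits genes under a few counts per library, such as GSC and MESP1.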

Other observations

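Some members of other lists also passed, where 5.79% of all genes tested were higher and 3.11% lower. Of 30 tested genes of cholesterol and fatty acid synthesis 4 were higher (INSIG1, SC5D and IDI1 among them) and none was lower, with a median log2 change of 0.19 against -0.02 over all genes tested. INSIG1, a brake on sterol synthesis, had 240.5, 81.4 and 95.3 CPM in BA cells, against 155, 63.8 and 57 CPM in t0 cells (log2 change 0.58 ± 0.13, adjusted p = 0.0161). The count was 0 without the replicate block and 0 to 3 with 1 of the 6 libraries left out, lowest without t0 replicate 3. Of 15 tested immediate early genes 3 were higher (JUND, IER2 and DUSP1), a count that was 0 without the replicate block and 1 to 3 with 1 of the 6 libraries left out, lowest without BA replicate 1, BA replicate 3, t0 replicate 1, t0 replicate 2 or t0 replicate 3. JUND, a subunit of the AP-1 factor, had 64.3, 109 and 97 CPM in BA cells, against 25.3, 56.3 and 54.3 CPM in t0 cells (log2 change 1.06 ± 0.19, adjusted p = 0.0055). BMP7, a ligand of the BMP family, had 72.7, 31 and 28.2 CPM in BA cells, against 14.2, 2.25 and 2.98 CPM in t0 cells (log2 change 2.92 ± 0.64, adjusted p = 0.0187), and in all 3 of 13 tested BMP ligand genes were higher, a count that was 0 without the replicate block and 1 to 3 with 1 of the 6 libraries left out, lowest without BA replicate 1, t0 replicate 2 or t0 replicate 3, with a list median of -0.16. Without the replicate block, BMP7, DUSP1, JUND, INSIG1, SC5D, IDI1 and IER2 had adjusted p-values from 0.0922 to 1. The INSIG1 call was lost without BA replicate 1, BA replicate 3, t0 replicate 2 or t0 replicate 3, with a highest adjusted p of 0.0868. The SC5D call was lost without BA replicate 2, BA replicate 3, t0 replicate 1 or t0 replicate 3, with a highest adjusted p of 0.0833. The IDI1 call was lost without any 1 of the 6 libraries, with a highest adjusted p of 0.247. The IER2 and DUSP1 calls were lost without BA replicate 1, BA replicate 3, t0 replicate 1, t0 replicate 2 or t0 replicate 3, with highest adjusted p-values of 0.125 and 0.209. The BMP7 call was lost without BA replicate 1, t0 replicate 2 or t0 replicate 3, with a highest adjusted p of 0.0947.

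Patterning genes of later stages were sparse. Of 39 HOX genes only HOXD1 passed the filter on low counts, with 0.888, 0.647 and 0.788 CPM in BA cells and no count in any t0 library. Of 9 tested IRX and ZIC genes 2 were lower, and one of them, IRX2, a homeobox factor of neural patterning, had 1.88, 0.431 and 0.788 CPM in BA cells, against 16.7, 7.24 and 7.71 CPM in t0 cells (log2 change -3.43 ± 0.68, adjusted p = 0.012). FBN2, a fibrillin of early matrix, had 1257, 361 and 428 CPM in BA cells, against 323, 105 and 105 CPM in t0 cells (log2 change 1.92 ± 0.32, adjusted p = 0.00427), and t0 replicate 1 lay just under BA replicate 2. The mitochondrial chaperones HSPD1 and HSPA9 changed by -0.43 ± 0.12 and -0.53 ± 0.12 (adjusted p = 0.0374 and 0.0155). Of 18 tested p53 targets TP53INP1 alone passed (log2 change 1.0 ± 0.22, adjusted p = 0.0155), a share near the 5.79% of all genes tested that were higher. With no block for replicate, IRX2 passed the test, while HSPA9, HSPD1, FBN2 and TP53INP1 had adjusted p-values from 0.138 to 0.762. The IRX2 call was lost without BA replicate 2 or BA replicate 3, with a highest adjusted p of 0.0581. The HSPD1 call was lost without any 1 of the 6 libraries, with a highest adjusted p of 0.179. The HSPA9 call was lost without t0 replicate 2 or t0 replicate 3, with a highest adjusted p of 0.103. The TP53INP1 call was lost without BA replicate 1, t0 replicate 1, t0 replicate 2 or t0 replicate 3, with a highest adjusted p of 0.0802.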
